A study of Mus musculus with 6 samples.

Results

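The genes described here are 8 transcription regulators: the zinc finger factors Egr1, Egr2 and Egr3 and the orphan nuclear receptors Nr4a1, Nr4a2 and Nr4a3, which lymphocytes switch on soon after receptor stimulation, and the EGR corepressors Nab1 and Nab2. They were taken by symbol from a count table of 50686 mouse genes, in which each of the 8 symbols had 1 row, and all 8 were among the 15458 genes with enough counts to test. The set was picked because Egr1 and Nr4a1 were higher in NK cells of lymphoma-bearing mice. Every difference of these 8 genes between the groups is therefore given below as a description. The number of them past the threshold used for all genes is stated beside its background and supports nothing.

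Natural killer (NK) cells belong to the innate lymphocytes and kill tumour cells and virus-infected cells. RNA of splenic NK cells was sequenced in 6 libraries, 3 from healthy C57BL/6J mice (WT 1 to 3, labelled wild type) and 3 from C57BL/6J mice that had received Eumyc lymphoma into a vein and were sampled at day 14 (Eumyc 1 to 3). Eumyc lymphoma is a B cell tumour driven by a Myc transgene in B lineage cells, so the NK cells profiled came from the host and were labelled with the same strain in both groups. The sources used here do not give the age of the mice or say that each library was 1 animal, so the error behind every p-value below is that among these libraries and may be technical. In both groups B cells were depleted and CD49b-binding cells enriched before NK1.1-positive, T cell receptor beta-negative cells were sorted. For Eumyc the cells not held by the CD49b beads were sorted as well, so lymphoma and sort cannot be told apart in any difference below.

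EGR1, EGR2 and EGR3 bind the same GC-rich site and are induced through calcium and ERK signalling downstream of antigen and NK cell receptors. In T cells EGR2 and EGR3 are known for restraining activation. NAB1 and NAB2 bind EGR proteins and repress the genes they occupy, and NAB2 is itself an EGR target, so the pathway carries its own brake. NR4A1 (NUR77), NR4A2 (NURR1) and NR4A3 (NOR1) are nuclear receptors that act without a known hormone, bind a shared response element and are known from exhausted T cells. Outside lymphocytes, NR4A1 is the factor on which nonclassical, patrolling monocytes depend.

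On the GRCm38 build, Egr1 (ENSMUSG00000038418) lies on chromosome 18 from 34859823 to 34864984, Egr2 (ENSMUSG00000037868) on chromosome 10 from 67535475 to 67542188 and Egr3 (ENSMUSG00000033730) on chromosome 14 from 70077445 to 70080157. Nr4a1 (ENSMUSG00000023034) spans 101266846 to 101274792 on chromosome 15, Nr4a2 (ENSMUSG00000026826) spans 57106830 to 57124003 on chromosome 2 and Nr4a3 (ENSMUSG00000028341) spans 48045153 to 48086447 on chromosome 4. Nab1 (ENSMUSG00000002881) occupies 52457294 to 52500679 on chromosome 1 and Nab2 (ENSMUSG00000025402) 127660918 to 127668568 on chromosome 10. These are whole-gene coordinates from the deposited table, which lists all 8 as protein-coding. Only Nab2 overlapped other annotated genes, all on the opposite strand: Nemp1 over 1668 bases, the antisense gene Gm16229 over 1646 bases and Stat6 over 40 bases. The sources used here do not state the strand setting of the counting, so the value of Nab2 is less certain than the others.

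The 6 libraries held 16407611 to 66615602 gene counts, and each Eumyc library was deeper than each WT library, with WT 3 the shallowest. Read counts of single members ranged from 118 for Egr3 in WT 1 to 14820 for Nab1 in Eumyc 2, so the spread between libraries rather than counting limited the precision. Levels of single genes below are CPM, counts scaled to library size with the trimmed mean of M-values (TMM). Sums over marker lists are CPM of all gene counts without TMM scaling. NK cell markers were abundant in all libraries: 9 genes of this class, led in Eumyc by Gzma and Prf1, summed to 12127 to 12683 CPM in WT and 10440.5 to 11654 CPM in Eumyc, and 6 of the 9 fell.

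Egr1 was at 16.3, 14.8 and 27.7 CPM in WT 1, 2 and 3 and at 74.2, 75.3 and 60.8 CPM in Eumyc 1, 2 and 3. The means were 19.6 ± 7.01 and 70.1 ± 8.08 CPM (SD, n = 3 each), a log2 fold change of 1.86. All 3 Eumyc libraries stood above all 3 WT libraries, and the lowest Eumyc value was over the highest WT value by more than either SD. Egr2 measured 5.56, 4.81 and 10.2 CPM in the WT libraries and 22.1, 20.3 and 16.9 CPM in the Eumyc libraries (log2 fold change 1.56). Egr3, an EGR2-related factor of thymocytes and T cells, measured 4.26, 3.38 and 9.70 CPM in the WT libraries and 18.9, 21.7 and 15.2 CPM in the Eumyc libraries (log2 fold change 1.74). For Egr2 and Egr3 too the groups did not overlap. In bulk RNA a larger share of expressing cells and more RNA per cell cannot be told apart.

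**Figure D1:**
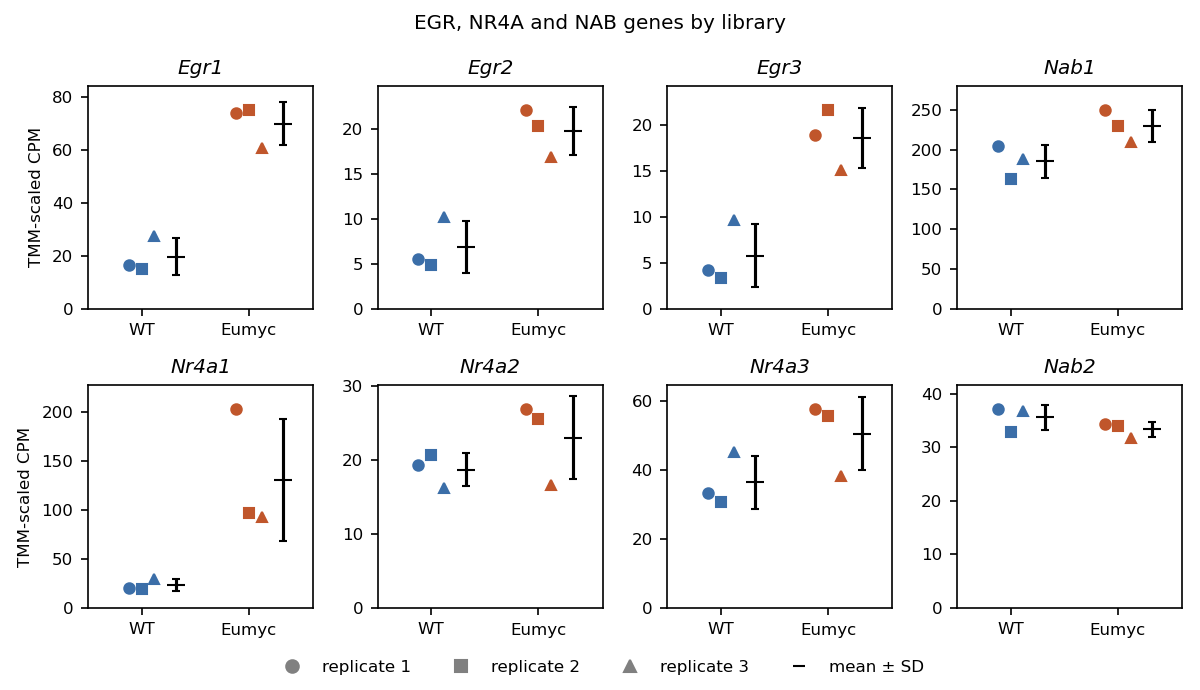
TMM-scaled CPM of the 8 genes in each library, with WT in blue and Eumyc in orange, symbols for replicates 1 to 3 and black bars for the mean and SD of 3 libraries. The 3 Egr genes and Nr4a1 are separated by group with WT 3 the highest WT library, Nr4a1 is highest in Eumyc 1 at 203 CPM, and Nr4a2, Nr4a3 and Nab2 overlap between the groups.

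The 3 EGR genes shared an ordering of libraries within WT, where WT 3 was the highest for each. WT 3 exceeded the mean of WT 1 and 2 by 0.83 log2 units for Egr1, 0.99 for Egr2 and 1.36 for Egr3. Of the 8 genes 7 were higher in WT 3, by a median of 0.56 over the 8, where the median of all genes with at least 1 CPM was 0.00030. The shift was not shared as a set by 24 other immediate early genes, of which 12 were higher in WT 3 (median 0.0095). In that list Fosb stood at 0.98, Ier3 at 0.85 and Dusp1 at 0.56 log2 units, but Maff at -0.66. Of 14 lymphocyte activation genes with at least 1 CPM, 8 were higher (median 0.17), with Il2ra at 1.22 and Icos at -0.56. Among the 10 nonclassical monocyte markers 2 were higher (median -0.40). Without WT 3 the log2 fold changes were 2.18 for Egr1, 1.94 for Egr2 and 2.30 for Egr3. WT 3 was also the shallowest library, and the part of depth in its higher EGR values was not tested.

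The remaining EGR family gene, Egr4, had 16 counts in all 6 libraries together and was not tested. Wt1, which encodes a related zinc finger factor, had 1 count.

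Nr4a1 was at 20.1, 18.9 and 30.1 CPM in WT 1, 2 and 3 and at 203, 96.8 and 93.0 CPM in Eumyc 1, 2 and 3. Its means were 23.0 ± 6.14 and 131 ± 62.6 CPM (SD, n = 3 each), a log2 fold change of 2.53, the highest of the 8 genes. The groups did not overlap, but Eumyc 1 held over 2 times the level of either other Eumyc library. Without Eumyc 1 the log2 fold change was 2.07. Nr4a2 measured 19.3, 20.7 and 16.2 CPM in the WT libraries and 26.9, 25.6 and 16.6 CPM in the Eumyc libraries (log2 fold change 0.29), and Eumyc 3 fell inside the WT range. Nr4a3 measured 33.3, 30.8 and 45.2 CPM in the WT libraries and 57.6, 55.6 and 38.3 CPM in the Eumyc libraries (log2 fold change 0.48), with Eumyc 3 below WT 3. The difference between the groups was thus carried within the NR4A family mainly by Nr4a1.

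Markers of nonclassical monocytes were higher in the same libraries as Nr4a1. All 10 genes of that list rose, none was at 0 in either group, and their summed level was 149.99 to 168 CPM in WT and 1335, 591 and 769 CPM in Eumyc 1, 2 and 3. Csf1r, the macrophage colony-stimulating factor receptor, rose by 2.42 and the peptidase gene Ace by 6.29 on the log2 scale (edgeR adjusted p = 0.000560 and 0.000132). Relative to the mean of Eumyc 2 and 3, Eumyc 1 was higher by a median of 1.09 log2 units over these markers, with all 10 above 0, and by 1.1 for Nr4a1. The 3 EGR genes were higher in Eumyc 1 by 0.13, 0.26 and 0.065 log2 units, Nr4a2 by 0.39, Nr4a3 by 0.32, Nab1 by 0.19 and Nab2 by 0.059. Eumyc 3 exceeded Eumyc 2 in the summed monocyte markers, where Nr4a1 was at 93.0 and 96.8 CPM. The excess in Eumyc 1 was not particular to nonclassical monocyte markers. Of 10 monocyte and macrophage markers 8 were higher in Eumyc 1 (median 0.48), with Lyz2 at 1.19 but C1qa at -0.30 log2 units. Of 3 neutrophil markers with at least 1 CPM 3 were higher (median 0.35), with Csf3r at 1.05. The part of monocyte or other myeloid RNA in the Nr4a1 level was not tested.

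**Figure D2:**
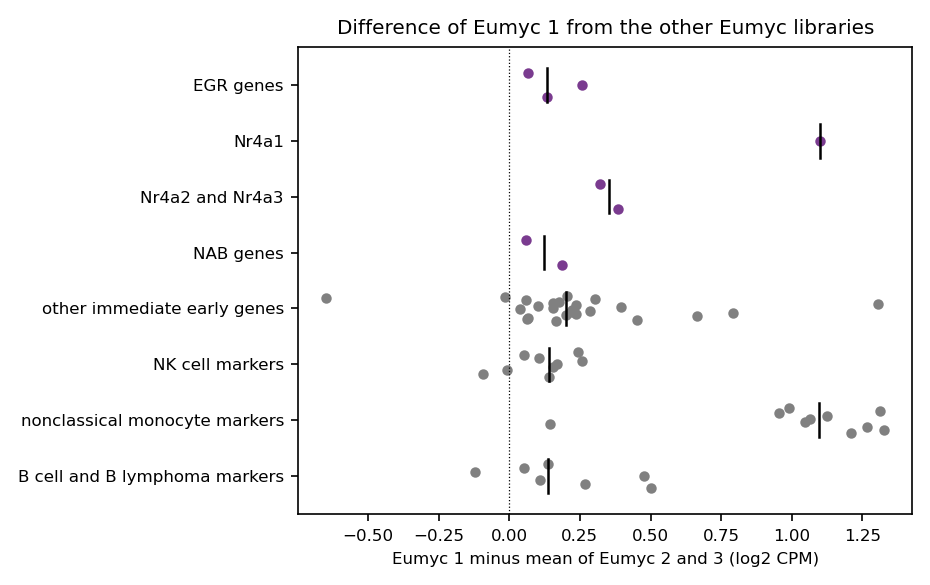
Log2 CPM of Eumyc 1 minus the mean of Eumyc 2 and 3 for each gene, as 1 point per gene, with the EGR, NR4A and NAB genes in purple, other lists in gray and black lines for medians. Nr4a1 at 1.1 lies level with the nonclassical monocyte markers (median 1.09). The lists of monocytes and macrophages and of neutrophils, which also hold genes higher in Eumyc 1, are not drawn. The EGR genes lie at 0.065 to 0.26. Medians in that range are those of NK cell markers (0.14), B cell and B lymphoma markers (0.14) and other immediate early genes (0.20).

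Nab1 measured 205, 163 and 188 CPM in the WT libraries and 249.99, 229 and 209.9 CPM in the Eumyc libraries, a log2 fold change of 0.31. The groups did not overlap, although Eumyc 3 exceeded WT 1 by less than either SD of 21.1 CPM in WT and 20.0 CPM in Eumyc. Nab2 measured 37.2, 32.9 and 36.8 CPM in the WT libraries and 34.3, 34.1 and 31.8 CPM in the Eumyc libraries, a log2 fold change of -0.09 with overlapping groups. Nab2 stood at similar CPM in the libraries with low and high Egr1. Its relation to the EGR genes was not tested, and the genes overlapping it make its count less certain.

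With edgeR's quasi-likelihood test over all genes, 5 of the 8 genes had an adjusted p under 0.05, namely Egr1, Egr2, Egr3, Nr4a1 and Nab1, and all 5 were higher in Eumyc. The same threshold called 48.8% of all tested genes, 25.7% higher and 23.1% lower. The same 5 genes had all 3 Eumyc libraries above all 3 WT libraries, as did 31.3% of all tested genes. Since the set was picked on this contrast, nothing is read from these counts. In the authors' deposited table the log2 fold changes were 1.70 for Egr1, 1.36 for Egr2, 1.40 for Egr3 and 1.83 for Nr4a1, each nearer 0 than the values above, and 0.27 for Nr4a2, 0.44 for Nr4a3, 0.30 for Nab1 and -0.10 for Nab2.

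To compare levels between genes, CPM were divided by the exon length in kilobases (RPKM). In WT the order was Nab1 at 45.2 ± 5.15, Nab2 at 12.1 ± 0.79, Nr4a1 at 6.56 ± 1.75, Nr4a3 at 6.09 ± 1.29, Nr4a2 at 4.62 ± 0.56, Egr1 at 4.38 ± 1.56, Egr2 at 2.02 ± 0.87 and Egr3 at 1.31 ± 0.78 RPKM (SD, n = 3 each). Among neighbours in this order, the library ranges overlapped between Nr4a1 and Nr4a3, between Nr4a2 and Egr1 and between Egr2 and Egr3. In Eumyc the order was Nab1 at 56.0 ± 4.89, Nr4a1 at 37.3 ± 17.8, Egr1 at 15.6 ± 1.80, Nab2 at 11.4 ± 0.47, Nr4a3 at 8.43 ± 1.78, Egr2 at 5.82 ± 0.79, Nr4a2 at 5.68 ± 1.38 and Egr3 at 4.22 ± 0.74 RPKM. There the ranges of Nab1 and Nr4a1 overlapped through Eumyc 1, and those of Nr4a3, Egr2, Nr4a2 and Egr3 overlapped from each to the next. Nr4a1 and Egr1 had moved above Nab2 in Eumyc, with all 3 libraries of each above all 3 of Nab2.

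**Figure D3:**
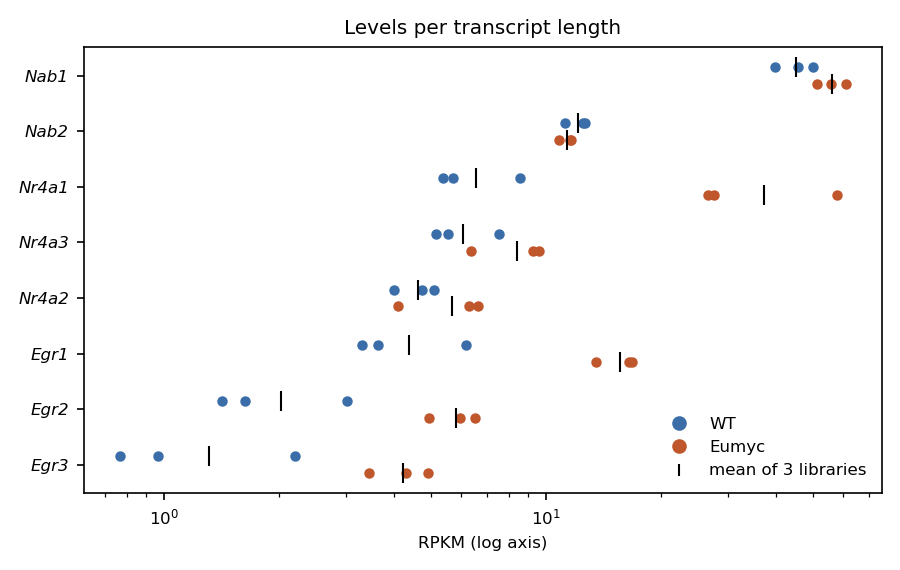
RPKM of each gene in each library on a log axis, genes ordered by their WT mean, with WT in blue, Eumyc in orange and the mean of 3 libraries as a black tick. Nab1 is the highest gene in both groups at 45.2 and 56.0 RPKM, and Nr4a1 and Egr1 stand above Nab2 only in Eumyc.

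The make-up of the NR4A family differed between the groups more than that of the EGR family. Egr1 supplied 57.6 ± 3.10% of the summed EGR RPKM in WT and 61.0 ± 0.68% in Eumyc (SD, n = 3 each). The libraries did not overlap (54.2% to 60.3% against 60.5% to 61.7%), but Eumyc 1 at 60.48% exceeded WT 2 at 60.26% by less than either SD. The Egr2 share was 26.1 ± 0.35% in WT and 22.7 ± 1.11% in Eumyc, also without overlap, and the Egr3 share was 16.3 ± 2.77% and 16.4 ± 1.19%. The summed EGR level was 7.71 ± 3.21 RPKM in WT and 25.7 ± 3.22 RPKM in Eumyc. Nr4a1 supplied 34.4% to 42.6% of the summed NR4A RPKM in the WT libraries and 63.9% to 78.1% in the Eumyc libraries, with the highest share in Eumyc 1. The summed NAB level was 8.14 ± 2.64 times the summed EGR level in WT and 2.64 ± 0.19 times in Eumyc. WT 3, the WT library highest in EGR genes, had the lowest WT ratio at 5.12, still above the highest Eumyc ratio of 2.83.

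The promoters of the NR4A genes were examined because 1 gene of the family differed between the groups far more than the other two. RefSeq promoter windows on GRCm38.p6, from 250 bases before to 50 bases after a start, were given for 6 of the 8 genes, and those of Egr1 and Egr3 are not used here. The sequences below are the parts of the windows that lie before the start and outside annotated exons, printed 5′ to 3′ on the strand of the gene. Capitals mark CRE cores, at which CREB-type factors bind (CGTCA, or TGACG on the other strand), and in Nr4a1 and Nr4a2 also the EGR site GCGNGGGCG on either strand.
Nr4a1, chr15:101266596-101266845, plus strand: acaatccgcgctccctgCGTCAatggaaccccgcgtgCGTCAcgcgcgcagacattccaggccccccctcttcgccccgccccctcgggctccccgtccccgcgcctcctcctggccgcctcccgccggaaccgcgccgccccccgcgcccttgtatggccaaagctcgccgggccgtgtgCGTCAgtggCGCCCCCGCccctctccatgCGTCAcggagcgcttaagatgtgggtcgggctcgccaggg
Nr4a2, chr2:57124004-57124253, minus strand: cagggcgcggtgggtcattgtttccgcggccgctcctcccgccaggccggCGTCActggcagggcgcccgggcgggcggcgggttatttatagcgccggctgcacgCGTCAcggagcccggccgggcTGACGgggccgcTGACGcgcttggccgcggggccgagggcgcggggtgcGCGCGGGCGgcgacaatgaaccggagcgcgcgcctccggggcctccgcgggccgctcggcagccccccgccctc
Nr4a3, chr4:48045055-48045152, plus strand: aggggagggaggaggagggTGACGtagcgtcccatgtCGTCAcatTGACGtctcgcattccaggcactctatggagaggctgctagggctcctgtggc

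Each NR4A window held 4 CRE cores, a number reached by 0.231% of 32851 RefSeq promoter windows, while 20.8% of windows held at least 1. In Nr4a1 they began at positions -233, -213, -69 and -40 from the start, in Nr4a2 at -200, -144, -123 and -111, and in Nr4a3 at -231, -213, -205 and -147, the last of which lies in an annotated exon and is not printed. The full CRE (TGACGTCA, which counts as 2 cores) occurred in 1.79% of windows and in none of the 6 genes. The EGR site occurred in 5.55% of windows, once in Nr4a1 at -60 and once in Nr4a2 at -74, and 3 times in Nab1, at -141, -109 and -38, within an annotated exon. A count of 3 or more EGR sites was found in 0.195% of windows. The number of CRE cores was the same in the 3 NR4A windows, and the part of these sites in the differences between the groups was not tested.

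The CArG box, to which serum response factor binds, was found in 1.63% of windows. Among the 6 genes Egr2 alone held it, in 4 of its 5 windows, 3 of which overlap. In the third window it lies just before a CRE core, both in capitals in this stretch of chr10:67537797-67537818 on the plus strand.
Egr2: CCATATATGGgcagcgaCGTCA
Neither the NBRE to which NR4A monomers bind (AAAGGTCA, in 1.51% of windows) nor the AP-1 site (TGANTCA, in 7.81%) was found in the windows of the 6 genes.

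Of 27 upstream regulators and partners, which include ERK and ERK5 kinases, serum response factor and its cofactors, MEF2, CREB and NFAT factors and RXR partners of the NR4A receptors, 5 rose, 12 fell and 10 did not pass. The share called was 63% beside 48.8% of all tested genes (25.7% higher and 23.1% lower), and the median log2 fold change was -0.14 beside -0.0050. Chd4, which encodes a chromatin remodeller that NAB2 recruits, rose by 0.31 ± 0.07 (SE, edgeR adjusted p = 0.00580). Mapk7 (ERK5) rose by 0.25 ± 0.09 and Mapk3 (ERK1) by 0.24 ± 0.07. Mapk3 was not called without WT 2 (adjusted p = 0.0630) or without WT 3 and Eumyc 1 together (0.0507). The serum response factor partner gene Elk4 fell by 0.51 (SE 0.08), from 240 ± 17.4 to 169 ± 15.0 CPM, and the NR4A partner genes Rxrb and Rxra fell by 0.44 (SE 0.06) and 0.39 (SE 0.06). No named difference in this group reached the size seen for Egr1, and 3 risen genes were left without WT 1, Eumyc 1 or Eumyc 2 and 2 without WT 2. The fallen count was 6 without WT 1 or WT 2 and 7 without Eumyc 3. Mapk7 lost its call in 8 alternatives, namely without WT 1, WT 2, Eumyc 1, Eumyc 2 or Eumyc 3, with total counts, with upper quartile scaling and at equal depth (adjusted p of 0.0531 to 0.131).

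Of the 24 other immediate early genes, 14 fell, 4 rose and 6 did not pass (edgeR adjusted p under 0.05), with a median log2 fold change of -0.56. The share called was 75% beside 48.8% of all tested genes, of which 23.1% were lower. Fos, an AP-1 subunit gene that ERK and serum response factor also induce, measured 33.6, 56.8 and 56.1 CPM in the WT libraries and 6.99, 7.01 and 5.55 CPM in the Eumyc libraries. It fell by 2.91 (SE 0.21) on the log2 scale, and the groups did not overlap. Jun fell by 1.09 (SE 0.22), the ERK phosphatase gene Dusp1 fell by 1.08 (SE 0.18) and the stress phosphatase subunit gene Ppp1r15a fell by 1.27 (SE 0.13). Among the 4 that rose was Myc, by 0.75 ± 0.12, from 65.9 ± 10.5 to 111 ± 13.5 CPM. The Eumyc tumour carries a Myc transgene, and summed B cell and B lymphoma markers were at 20.3 to 22.9 CPM in WT and 53.2 to 59.8 CPM in Eumyc. The part of lymphoma RNA in the Myc level was not tested. Klf4 rose by 3.53 ± 0.40, and like Nr4a1 it was highest in Eumyc 1, at 54.1 CPM against 18.9 and 25.4 CPM in Eumyc 2 and 3.

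**Figure D4:**
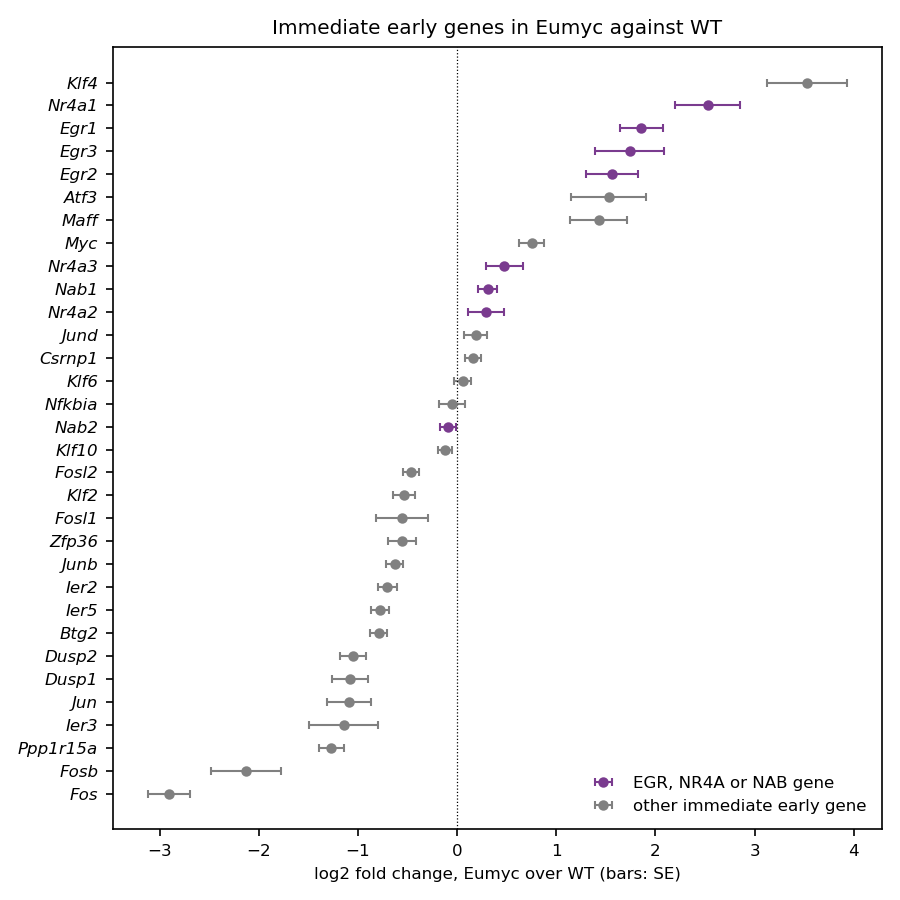
Log2 fold change of Eumyc over WT with its SE for the 8 EGR, NR4A and NAB genes in purple and 24 other immediate early genes in gray, ordered by value. Nr4a1 at 2.53 and the 3 Egr genes lie near the top below Klf4 at 3.53, while Fos at -2.91 is the lowest.

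Among 23 genes that have been linked to EGR factors in lymphocytes, 10 rose, 2 fell and 11 did not pass, with a median log2 fold change of 0.42. The inhibitory receptor gene Lag3 rose by 3.34 ± 0.20 (SE, edgeR adjusted p = 7.09e-05), from 8.57 ± 2.90 to 84.5 ± 5.26 CPM. Id3, an inhibitor of E proteins that EGR1 induces in thymocytes, rose by 1.86 ± 0.22 and the costimulatory receptor gene Tnfrsf9 rose by 1.02 ± 0.22. Tnfrsf9 stood at 71.7, 53.8 and 110.3 CPM in WT, highest in WT 3 as the EGR genes were. The death ligand gene Fasl fell by 0.29 (SE 0.06) and the diacylglycerol kinase gene Dgka fell by 0.25 (SE 0.06), the latter not called without WT 1 (adjusted p = 0.0511). The share called in this group, 52.2%, was near the 48.8% of all tested genes. By direction, 10 of the 23 rose and 2 fell, where 25.7% of all tested genes were higher and 23.1% lower.

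Among 11 genes that have been studied with NR4A factors in exhausted T cells, 8 rose, 1 fell and 2 did not pass, with a median log2 fold change of 1.71. The share called was 81.8% beside 48.8% of all tested genes, of which 25.7% were higher. Among the risen genes, Pdcd1, Ctla4 and Tox2 were near 0 in WT, at means of 0.048, 0.20 and 0.059 CPM. In Eumyc they averaged 1.86, 1.78 and 0.47 CPM. They passed the count filter only through Eumyc, so their calls could hardly fall otherwise and add nothing to this share. Havcr2 (TIM-3) rose by 4.16 ± 0.36 (SE, edgeR adjusted p = 0.000186), the transcription factor gene Irf4 by 2.29 ± 0.16 and the inhibitory receptor gene Tigit by 1.71 ± 0.15. Their ordering within Eumyc differed. Havcr2 was at 23.8, 12.8 and 11.0 CPM in Eumyc 1, 2 and 3, the same ordering as Nr4a1, whereas Tigit was lowest in Eumyc 1 at 67.6 CPM against 95.1 and 83.9 CPM. Entpd1, which encodes the ectoenzyme CD39, fell by 0.35 (SE 0.09), and this call was lost without WT 1 (adjusted p = 0.0515).

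Of 15 tested genes that mark lymphocyte activation 5 rose, 3 fell and 7 did not pass, with a median log2 fold change of 0.29. Il2ra, the high-affinity interleukin 2 receptor chain, rose by 1.97 ± 0.38 and the chemokine gene Ccl4 rose by 1.61 ± 0.18 (SE, edgeR adjusted p = 0.000400). Icos and the NF-kB inhibitor gene Nfkbid fell by 0.96 (SE 0.20) and 0.68 (SE 0.07). The share called, 53.3%, was near the 48.8% of all tested genes.

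The sums of the other marker lists also differed between the groups without overlap, except those of dendritic cells and of basophils and mast cells. The monocyte and macrophage list, led by Ccr2 and Lyz2, had 6 of 10 genes higher and 1 lower, with sums of 1101 to 1208 CPM in WT and 1400.4 to 1758 CPM in Eumyc. Ccr2 overlapped between the groups and lost its call with total counts, with upper quartile scaling and without WT 1, WT 2, Eumyc 1 or Eumyc 2 (adjusted p of 0.0737 to 0.123). The list of B cells and B lymphoma, led by Cd22 and Cd79b, had 7 of 11 genes higher and summed to 20.3 to 22.9 CPM in WT and 53.2 to 59.8 CPM in Eumyc. Neutrophil genes, led by S100a9 and Csf3r, rose in 8 of 10 cases and summed to 4.13 to 5.55 and 51.0 to 77.6 CPM, with Elane and Ly6g at 0 in all WT libraries. The T cell list, led by Cd3g and Cd3d, had 3 of 10 genes higher and 1 lower and summed to 95.6 to 105 and 156 to 197 CPM. Its rise lay mainly in Cd3g (mean 14.9 to 64.8 CPM) and Cd3d (17.0 to 55.2 CPM). Cd3e, Cd6, Themis and Lef1 had negative log2 fold changes, and Cd4, Cd8a, Cd8b1 and Cd5 positive ones at lower levels. The gamma-delta T cell list, led by Trdc and Cd163l1, had 1 of 5 lower and summed to 106 to 113 and 58.5 to 67.4 CPM, with Il23r at 0 in WT. The erythroid and platelet list, led by Hbb-bs and Hba-a1, had 6 of 9 higher and 1 lower at 14.1 to 33.8 and 48.6 to 53.5 CPM, and Hba-a1 was not called without WT 2 (adjusted p = 0.0634). Dendritic cell markers, led by Zbtb46 and Flt3, had 4 of 7 higher at 9.36 to 13.0 and 8.95 to 13.4 CPM, with Siglech at 0 in WT. Basophil and mast cell markers, led by Prss34 and Cpa3, had 2 of 6 higher and 1 lower at 4.00 to 6.57 and 3.30 to 12.4 CPM. Prss34 lost its call with DESeq2 and voom and without WT 1, WT 2 or Eumyc 1 (adjusted p of 0.0688 to 0.129). Cpa3 lost its call with no filter, with the replicate block, at equal depth, without WT 3 and Eumyc 1 together, and on leaving out WT 1, WT 2, Eumyc 1 or Eumyc 3 (adjusted p of 0.0508 to 0.122). Some sums rested mostly on 1 gene, with means given here for WT and Eumyc. These were Ccr2 (832 and 978 CPM) for monocytes and macrophages, Trdc (105 and 61.8 CPM) for gamma-delta T cells and Zbtb46 (10.2 and 8.48 CPM) for dendritic cells. Such sums do not measure cell numbers. The part of other cell types in the levels of the 8 genes was not tested.

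Genes with the library profile nearest to Egr1 and to Nr4a1 differed. Likeness was the root mean square difference of log2 CPM, each gene centred over the 6 libraries, among 9001 other genes averaging 10 CPM or more, and it includes the difference between the groups. Nearest to Egr1 were the granzyme gene Gzmk at 0.17, the pyrophosphatase gene Ppa1 at 0.18, Gzmb at 0.18, the Src-family kinase gene Fgr at 0.21 and Ccl4 at 0.21 log2 units. Egr2 at 0.16 was nearer to Egr1 than any of these, and Egr3 stood at 0.20. Nearest to Nr4a1 were Cebpb at 0.18, Wdfy4 at 0.21, Gngt2 at 0.21 and Scarb1 at 0.26. Cebpb, which encodes a transcription factor of myeloid cells, measured 8.55, 9.17 and 10.8 CPM in the WT libraries and 100.1, 40.3 and 47.8 CPM in the Eumyc libraries. Egr1 was 0.44 from Nr4a1, with 38 genes nearer, and Nr4a3 and Nr4a2 were at 1.03 and 1.16.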

How the data were processed

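Whole-number counts per gene were deposited by the authors for 6 libraries. The submitters' processing notes name the mm10 (GRCm38) build and, without their roles, DESeq2 1.10.1, HTSeq 0.6.1 and STAR 2.5.2. The sources used here give neither annotation release nor strand setting. The authors' deposited table gives log2 fold changes for 10292 genes. Genes were filtered with filterByExpr (minimum count 10), scaled by TMM and tested with edgeR 4.0.16 in R 4.3.3 by a two-sided quasi-likelihood fit on group, with Benjamini-Hochberg adjustment over all 15458 genes at a threshold of 0.05. Standard errors come from the F statistic, and marker sums are CPM of all gene counts. Exon lengths are from GENCODE M21, whose coordinates for Egr3 and Nr4a1 differ from the deposited ones. No 2 libraries of a group agreed within sampling noise (chi-square per degree of freedom at least 8.32). The scripts were tested on simulated data. The members and lists were chosen with earlier results of these data known. Named genes are the 8 members, up to 3 called genes in each direction per pathway list with at least 10 CPM in the higher group, Fos, Jun and Dusp1, the 2 most abundant genes in Eumyc of each marker list, and the 5 genes nearest Egr1 and Nr4a1, of which 1 is not reported here. Alternatives were DESeq2 1.42.0, limma 3.58.1 voom, other scalings and filters, a replicate block, equal depth, another length and leaving out libraries. Leaving out WT 3 and Eumyc 1 together was chosen after seeing the data. Plots used matplotlib 3.10.9.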

Additional observations from a re-analysis of the deposited data

How the results depend on the processing

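Every log2 fold change of the 8 genes kept its sign under all 16 alternatives and moved by less than the SD between libraries. Leaving out 1 library gave ranges of 1.69 to 2.18 for Egr1, 1.35 to 1.94 for Egr2, 1.45 to 2.30 for Egr3 and 2.07 to 2.75 for Nr4a1. The number of the 8 called higher was 4 to 7 when 1 library was left out. Beside it, 3252 to 4284 of 15741 to 16208 tested genes were higher, and nothing is read from the number. Without WT 3 and Eumyc 1 together, chosen after seeing the data, the values were 2.14 for Egr1 and 2.30 for Nr4a1. Upstream regulators that rose numbered 3 with total counts, with upper quartile scaling and without WT 3 and Eumyc 1, and 2 to 5 with 1 library left out, and those that fell numbered 6 to 14. Under the filter of 3 CPM in 3 libraries, which tests fewer genes, 2 of 20 immediate early genes and 5 of 8 NR4A-linked genes rose. With 1 library left out, 1 to 2 EGR-linked and 0 to 1 NR4A-linked genes fell. With the longest transcript as the length, the RPKM were 6.67 for Egr2 in Eumyc, 9.02 for Nr4a1 in WT, 5.25 for Nr4a2 in WT, and 13.8 and 12.9 for Nab2 in WT and Eumyc, with the order of the 8 genes unchanged. Same-numbered libraries of the 2 groups deviated together only weakly (correlations 0.026, 0.080 and 0.083), beside -0.10 to 0.033 for unlike numbers. These values do not settle whether the numbers pair the samples. With a replicate block 5 of the 8 genes were called. Of all 15458 tested genes 4176 rose and 3684 fell in place of 3973 and 3576. Each library correlated best with its own number except WT 1. Counting noise does not limit the 8 genes, while 3 libraries per group limit how finely differences between them are resolved.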
